A study of Rattus norvegicus with 4 samples.

Results

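The genes of the kinesin, dynein and dynactin families were examined in primary hippocampal neuron cultures from rat embryos after knockdown of Gld2. They were taken by gene symbol from the annotation of the array (kinesins Kif and Kifc, kinesin light chains Klc, dynein chains Dync and Dynl, dynactin subunits Dctn), and 59 of the 14497 genes with a symbol of their own matched. Each was read by 1 probe set. They were sorted by role into 15 transport kinesins, 4 kinesin light chains, 11 mitotic kinesins, 6 other kinesins, 5 chains of cytoplasmic dynein 1, 9 dynein light chains, 3 chains of dynein 2 and 6 dynactin subunits. Cultures carried either an shRNA against Gld2 (2 cultures) or a scrambled control shRNA (2 cultures), introduced by transduction. Gld2, whose gene is now called Tent2, is a cytoplasmic poly(A) polymerase. The labels name neither the promoter that drives the shRNAs nor the share of cells transduced, nor whether replicate cultures were prepared apart. The p-values therefore reflect the spread among these 4 cultures only, and that spread may be technical.

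Kinesins and cytoplasmic dynein are ATP-driven motors that walk along microtubules. Most kinesins of transport carry vesicles, mitochondria and RNA granules outward to the synapse, whereas dynein 1, with its cofactor dynactin, carries cargo back toward the cell body. A further set of kinesins builds and drives the mitotic spindle, so it is used mainly by dividing cells, and neurons have left the cell cycle.

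Poly(A) RNA eluted by heat from poly(U) Sepharose was hybridised to 4 whole-transcript arrays, and values are log2 RMA values. In such RNA a change in the amount of a transcript and a change in its recovery through the poly(A) tail cannot be told apart. Array medians over all 28826 probe sets were between 8.41 and 8.48. Tent2 itself stood at 9.50 and 9.35 with Gld2 shRNA and at 10.73 and 10.67 in the controls. The signal of the targeted transcript was thus lower in the cultures labelled Gld2 shRNA (adjusted p = 0.000754 by limma). The number of arrays limits the precision. Of 12 neuron markers 0 lay under the median level of all genes, against 20 of 22 markers of dividing cells, and no detection calls were used here.

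The sequence upstream of the genes, which the array did not measure, is shown because a cell cycle motif was found in some of the mitotic motors and in 0 transport motors, a description with no test. Promoter sequence from RefSeq (GRCr8) was matched for 47 of the 59 genes, and the 250 bases before the annotated start were searched on both strands. The motifs were the cell cycle homology region, TTTGAA or TTCGAA, found in genes expressed late in the cell cycle, and the CCAAT box. The interferon-stimulated response element, searched as well, was found in 0 of the 47, against 3.29% of all 27457 promoters. The cell cycle motif was present in 5 of 10 mitotic motors and in 0 of 15 transport motors, against 17.3% of all promoters. The CCAAT box was present in 7 of the 10 mitotic and 4 of the 15 transport motors, against 34.3%. Both motifs together were held by 4 mitotic motors (40%), by 0 transport motors and by 6.22% of all promoters. The cell cycle motif was not limited to mitotic motors. It was also present in Dctn1, Dynlt5 and Kif26b, and Kif26b held the CCAAT box as well. Over the 47 members the cell cycle motif was present in 8 (17%, near the share of all promoters) and both motifs in 5 (10.6%). The 4 mitotic motors with both, and for contrast the heavy chain of dynein 1 with neither, are printed 5′ to 3′, with the motif matches in capitals (ATTGG and TTCAAA are the same motifs on the other strand).
Kifc1, chr20:5000679-5000928, plus strand: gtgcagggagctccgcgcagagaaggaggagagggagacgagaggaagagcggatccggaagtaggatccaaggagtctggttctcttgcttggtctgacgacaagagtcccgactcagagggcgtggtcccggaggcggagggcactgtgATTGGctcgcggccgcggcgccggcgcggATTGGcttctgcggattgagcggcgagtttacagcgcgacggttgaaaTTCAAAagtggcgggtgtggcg
Kif20b, chr1:241840766-241841015, plus strand: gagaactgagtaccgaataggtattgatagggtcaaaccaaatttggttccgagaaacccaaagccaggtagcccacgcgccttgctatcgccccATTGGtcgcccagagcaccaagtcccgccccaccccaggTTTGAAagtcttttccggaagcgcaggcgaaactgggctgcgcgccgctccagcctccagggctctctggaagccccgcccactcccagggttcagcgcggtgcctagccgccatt
Kif22, chr1:191080879-191081128, minus strand: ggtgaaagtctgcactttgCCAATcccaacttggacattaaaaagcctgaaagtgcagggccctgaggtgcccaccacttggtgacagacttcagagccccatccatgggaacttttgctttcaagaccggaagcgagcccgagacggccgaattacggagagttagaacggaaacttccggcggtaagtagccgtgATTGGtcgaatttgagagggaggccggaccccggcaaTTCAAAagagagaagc
Kif23, chr8:71320585-71320834, minus strand: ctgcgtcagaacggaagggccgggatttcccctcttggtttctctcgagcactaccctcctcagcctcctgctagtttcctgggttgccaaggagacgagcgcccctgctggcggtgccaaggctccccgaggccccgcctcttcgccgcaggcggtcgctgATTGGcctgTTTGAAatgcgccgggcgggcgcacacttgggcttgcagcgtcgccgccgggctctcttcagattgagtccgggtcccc
Dync1h1, chr6:135436228-135436477, plus strand: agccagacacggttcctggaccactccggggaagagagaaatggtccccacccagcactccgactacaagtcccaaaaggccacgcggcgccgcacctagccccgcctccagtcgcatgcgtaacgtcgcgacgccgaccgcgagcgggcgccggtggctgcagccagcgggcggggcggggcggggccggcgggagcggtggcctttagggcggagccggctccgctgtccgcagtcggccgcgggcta
In Kifc1, which encodes a minus-end kinesin of the spindle, the cell cycle match begins 22 bases before the start and the CCAAT boxes 99 and 70 bases before it. In Kif22, a chromosome-binding kinesin, the match begins 16 bases before the start. In Kif20b and Kif23, both kinesins of cell division, it begins 116 and 79 bases before it. A match is a run of letters and was not tested as a binding site.

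Knockdown of Gld2 left the motor genes near their control levels. Of the 59 genes, 0 were higher and 0 lower at an adjusted p under 0.05 (by limma, with Benjamini-Hochberg adjustment over 14497 genes), where 1.69% of all genes were higher, 2.41% lower and 4.1% changed either way. At an unadjusted p under 0.05, 4 were higher and 7 lower, 18.6% of the members against 25.4% of all genes (9.24% higher and 16.2% lower). The differences ran from -0.28 (Kif26b) to 0.34 (Kifc1) on the log2 scale, with a median of -0.02 against -0.02 over all genes. All 59 of the 95% confidence intervals lay inside a 1.5-fold change in either direction, as did those of 13702 of all 14497 genes. They hold for the scaling used and rest on the spread of these 4 cultures. The outermost bounds were -0.45 for Kif26b and 0.52 for Kifc1. A miss of the threshold does not show that a gene was unchanged, and 11 intervals left out 0.

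In 41 of the 59 genes the values of the groups did not overlap, 15 with both Gld2 shRNA cultures higher and 26 with both lower. Over all genes 24% did not overlap in the higher and 34.5% in the lower direction, 58.5% in all, so a separation of 2 cultures from 2 was common on these arrays. The number of calls moved with the cultures used, in the members and in all genes. Without Gld2 shRNA replicate 1, 6 members were higher (Dynlt4, Kif19, Kif2b, Kif6, Kifc1 and Klc3) and 2 lower (Dync2h1 and Kif26b), and in that fit 8.85% of all genes were called higher and 9.7% lower. Members called numbered 0 without Gld2 shRNA replicate 2, scrambled shRNA replicate 1 or scrambled shRNA replicate 2, where 1.87%, 0.586% and 0.635% of all genes were called. Of the 59 members, 13 (22%) passed under at least 1 of the 14 alternatives in processing, Kifc1 under 5 and Kif6 under 4, against 26.3% of all genes.

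**Figure D1:**
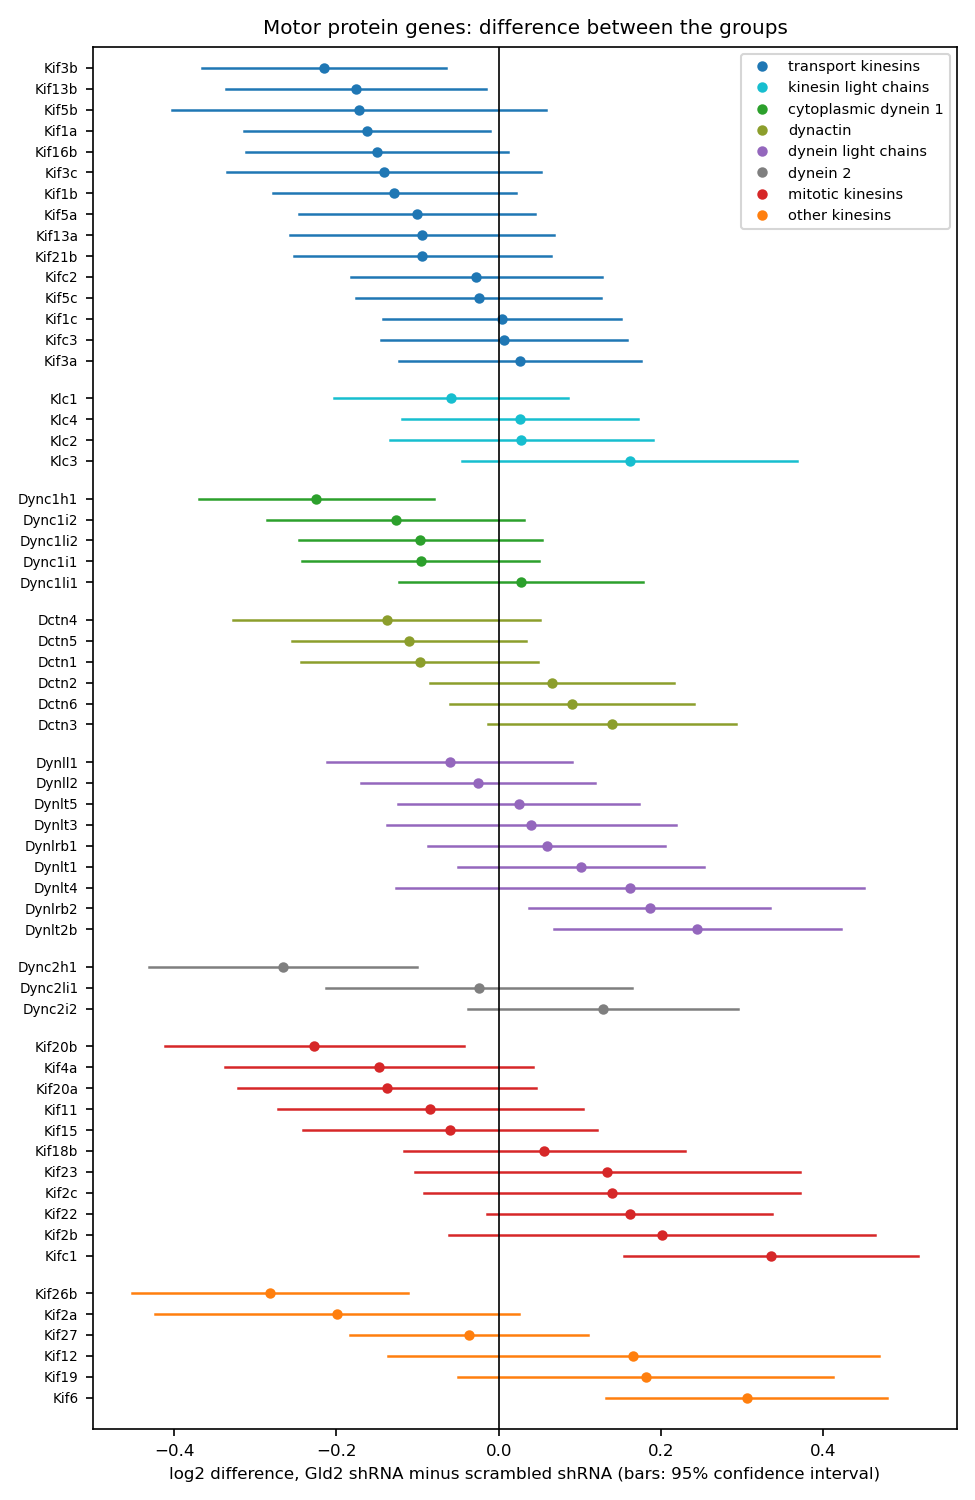
Log2 difference (Gld2 shRNA minus scrambled shRNA, 2 cultures each) of the 59 motor genes, sorted by class, with 95% confidence intervals from limma as bars. Most transport kinesins and dynein 1 chains lie left of 0, the mitotic kinesins lie on both sides, and the outermost points are Kif26b at -0.28 and Kifc1 at 0.34.

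Transport kinesins lay slightly below control. Of 15, 12 had a difference below 0 (80%, against 53.8% of all genes). The median was -0.10 with a range from -0.22 to 0.03, and 0 were called in either direction. The groups did not overlap for 9 of them, all lower (60%, against 34.5% of all genes). Kif3b and Kif3a encode the motor subunits of heterotrimeric kinesin 2, which works in dendrites and cilia. Kif3b had values of 10.13 and 10.09 with Gld2 shRNA and 10.35 and 10.30 in the controls, a difference of -0.22 (95% confidence interval -0.37 to -0.06, adjusted p = 0.108 by limma). The knockdown cultures were both lower than either control. Its partner Kif3a stood at 10.85 and 10.83 against 10.84 and 10.79, overlapping, with a difference of 0.03 (-0.12 to 0.17). Kif3c, another partner of Kif3a in neurons, was at -0.14 (-0.33 to 0.05). Whether the differences of Kif3b and Kif3a differ from each other was not tested.

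Kinesin 1, the main motor of fast axonal transport, has 3 heavy chain genes. Kif5a, found mainly in neurons, stood at 12.33 and 12.30 with Gld2 shRNA and 12.42 in each control, a difference of -0.10 (-0.25 to 0.04). Kif5b, the widely expressed chain, had values of 11.13 and 10.99 against 11.33 and 11.13, a difference of -0.17 (-0.40 to 0.06). Kif5c, also neuronal, was at 12.21 and 12.16 against 12.23 and 12.19, a difference of -0.02 (-0.18 to 0.13). Only for Kif5a of these 3 were the groups apart, and none passed the threshold (adjusted p from 0.299 to 0.826, limma). The sign of the Kif5c difference turned with the scaling, to 0.05 when each array was centred on the median of all 14497 genes and to 0.09 when the length trend was removed. The light chains, which link kinesin 1 to cargo, ran from -0.06 (Klc1) to 0.16 (Klc3), with 0 of 4 called and a median of 0.03. Klc3 had values of 8.84 and 9.05 against 8.78 in each control.

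Kinesin 3 motors carry synaptic vesicle precursors, dense core vesicles and endosomes. Kif1a, the vesicle motor of axons, stood at 12.51 and 12.50 with Gld2 shRNA and at 12.70 and 12.63 in the controls. Its difference was -0.16 (-0.31 to -0.01, adjusted p = 0.177 by limma), that is 89.3% of the control level, and the groups did not overlap. It passed under 1 alternative, in which the prior variance depends on level (adjusted p = 0.00683 by limma), and over all alternatives its adjusted p lay between 0.00683 and 0.609. In the fit with that prior variance 15.4% of all genes were called. Kif1b was at -0.13 and Kif1c at 0.00. Kif13b and Kif13a had differences of -0.18 and -0.09, and Kif16b, a motor of early endosomes, of -0.15. Of these 6 genes only Kif1c and Kif13a had an absolute difference under 0.10. The remaining transport kinesins, Kif21b (-0.09) and the minus-end motors Kifc2 (-0.03) and Kifc3 (0.01), did not pass either.

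Cytoplasmic dynein 1 is the retrograde motor of axons and dendrites, and its heavy chain carries the ATPase. Dync1h1, the heavy chain, had values of 12.04 and 12.02 with Gld2 shRNA and 12.26 and 12.24 in the controls. Its level was 85.6% of control, with a log2 difference of -0.22 (-0.37 to -0.08, adjusted p = 0.0954 by limma). The cultures of each group lay close together while the groups were apart. Dync1h1 passed with a level-dependent prior variance (adjusted p = 0.000903) and with either filter on dim genes, and its adjusted p ran up to 0.451 over the limma alternatives. With that prior 15.4% of all genes were called, and with the filters 11.9% and 22% of the genes left. The intermediate chains bind dynactin. Dync1i1 stood at 11.878 and 11.902 against 12.001 and 11.972 (-0.10), and Dync1i2 at 11.61 and 11.54 against 11.73 and 11.67 (-0.13). Of the light intermediate chains, which bind the adaptors, Dync1li2 stood at 11.41 and 11.39 against 11.52 and 11.47 (-0.10) and Dync1li1 at 12.77 and 12.73 against 12.75 and 12.70 (0.03). Thus 4 of 5 chains had both knockdown cultures below both controls, as did 34.5% of all genes, and Dync1li1 overlapped. None was called, and the median of the 5 was -0.10. Removal of the length trend turned Dync1i1 to 0.05 and left the other 4 with the same sign.

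The dynactin subunits with a Dctn symbol split evenly by sign, 3 above and 3 below 0, with 0 of 6 called. The other measured subunits, listed with the adaptors, all had a difference above 0 and were not called. Actr1a was at 0.02, Actr1b at 0.06, Actr10 at 0.0007, Capza1 at 0.18, Capza2 at 0.19 and Capzb at 0.09. Dynactin tethers dynein to cargo and makes it processive. Dctn1, the microtubule-binding p150 subunit, had values of 11.66 and 11.64 against 11.73 and 11.76 in the controls (-0.10). Dctn4 stood at 11.25 and 11.08 against 11.32 and 11.30 (-0.14), and Dctn5 at 11.65 in each knockdown culture against 11.77 and 11.75 (-0.11). Both encode subunits of the pointed end complex. Above control were Dctn2 (dynamitin), at 11.64 and 11.62 against 11.54 and 11.59 (0.07), Dctn3, at 10.66 and 10.65 against 10.48 and 10.55 (0.14), and Dctn6, at 11.50 and 11.52 against 11.39 and 11.45 (0.09). Dctn2 and Dctn3 belong to the shoulder and Dctn6 to the pointed end, so the pointed end held values of both signs. The groups did not overlap in any of the 6 Dctn genes, nor did they in 58.5% of all genes. The intervals of all 6 Dctn genes included 0 and the adjusted p ran from 0.223 to 0.532 (limma).

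Dynein light chains are small homodimers on the dynein tail that also have partners outside dynein. Of 9, 7 had a difference above 0 and 0 were called, with a median of 0.06. Below 0 were 2 (22.2%), against 53.8% of all genes. Dynlt2b, a light chain of the ciliary dynein 2, had values of 10.33 and 10.19 with Gld2 shRNA against 10.04 and 9.99, a difference of 0.24 (0.07 to 0.42, adjusted p = 0.114 by limma). Dynlrb2, of the roadblock family, stood at 6.90 and 6.92 against 6.70 and 6.75, a difference of 0.19 (0.04 to 0.33, adjusted p = 0.137 by limma). Both genes had knockdown cultures above both controls, and Dynlrb2 lay under the 25th percentile of level. In the class the groups were apart with the knockdown higher in 4 of 9 (44.4%, against 24% of all genes) and lower in 2. The most widely used light chains barely moved from control, Dynll1 at -0.06, Dynll2 at -0.02 and Dynlrb1 at 0.06.

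Dynein 2 returns cargo from the tip of the primary cilium. Its heavy chain Dync2h1 had values of 8.73 and 8.63 with Gld2 shRNA against 8.96 and 8.92, a difference of -0.27 (-0.43 to -0.10, adjusted p = 0.0872 by limma). The groups were apart. Without Gld2 shRNA replicate 1 it passed (adjusted p = 0.0367, limma), and over the fits without 1 culture the difference ran from -0.32 to -0.21. The intermediate chain Dync2i2 was at 0.13 and the light intermediate chain Dync2li1 at -0.02, so the 3 chains differed in sign, and none was called.

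Mitotic kinesins were scattered around control. Of 11, 6 had a difference above and 5 below 0, 0 were called, and the median was 0.06. Kifc1 stood highest of all 59 members, with values of 8.52 and 8.66 with Gld2 shRNA against 8.21 and 8.30. Its difference was 0.34 (0.15 to 0.52), 1.26-fold higher, with an adjusted p of 0.0675 (limma) and a range from 0.0161 to 0.412 over the alternatives. Kif2b, a spindle kinesin that removes tubulin from microtubule ends, had values of 6.99 and 7.30 against 6.93 and 6.95 (0.20, -0.06 to 0.46), so most of its difference came from Gld2 shRNA replicate 2. Kif20b had the lowest value among them, at 4.99 and 5.15 against 5.27 and 5.33 (-0.23, -0.41 to -0.04, adjusted p = 0.140 by limma). Kif11, the motor that pushes the spindle poles apart, stood at 6.85 and 6.84 against 6.84 and 7.01, overlapping (-0.08, -0.27 to 0.10). Its sign rested on scrambled shRNA replicate 2, without which the difference was 0.0006, and on gene length, with 0.0064 once the trend was removed. Kif22 (0.16), Kif2c (0.14), Kif23 (0.13) and Kif18b (0.06) were above 0, and Kif4a (-0.15), Kif20a (-0.14) and Kif15 (-0.06) below. All 11 lay under the median level of all genes and 8 under the 25th percentile.

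Other markers of dividing cells were scattered too. Of 22 measured, 0 were called, 2 were higher and 1 lower at an unadjusted p under 0.05, and their median was -0.05. Their mean log2 level was 7.80 and 7.81 with Gld2 shRNA and 7.81 and 7.82 in the controls. In these bulk cultures fewer dividing cells and less RNA per dividing cell cannot be told apart. The 10 microglia markers had a median difference of 0.13 (0 called) with 9 above 0, and their mean log2 level was 7.68 and 7.76 against 7.58 and 7.60. In 7 of them (70%) both knockdown cultures lay above both controls, against 24% of all genes. Of 7 markers of oligodendrocytes Cnp rose (0.54, adjusted p = 0.0169 by limma) and 6 did not pass, Mbp being at -0.29, and the median was 0.03 with 5 above 0. Of 8 markers of astrocytes Gja1 fell (-0.39, adjusted p = 0.0351 by limma) and 7 did not pass, and the median was 0.06 with 5 above 0. Mean log2 levels were 9.41 and 9.44 against 9.33 and 9.34 for oligodendrocytes, and 12.07 and 12.02 against 12.04 and 12.07 for astrocytes. Of 9 markers of vessels and fibroblasts 0 were called. Their median was 0.05 with 5 above 0, and they ran from -0.34 (Pdgfrb) to 0.30 (Col3a1). Of the 12 neuron markers 0 were called and 8 were below 0, with a median of -0.03 and a range from -0.24 (Gad2) to 0.05 (Eno2). In 4 neuron markers (33.3%) both knockdown cultures lay below both controls, against 34.5% of all genes. The part of these cells in the values of the motors was not tested.

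The other kinesins held the remaining outer values. Kif26b, a kinesin without motor activity known from development, had values of 8.53 and 8.40 with Gld2 shRNA and 8.75 and 8.74 in the controls, a difference of -0.28 (-0.45 to -0.11, adjusted p = 0.0834 by limma). Kif6 stood at 7.95 and 8.07 against 7.73 and 7.68, a difference of 0.31 (0.13 to 0.48, adjusted p = 0.0746 by limma). It was the only member past the threshold with the length trend removed (0.45, adjusted p = 0.0446, limma), where 3.74% of genes passed. In both genes the groups were apart. Kif2a, which trims microtubules and axon branches in neurons, had 11.06 and 10.87 against 11.24 and 11.09 (-0.20, -0.42 to 0.03), with groups that did not overlap by a narrow margin. Kif19, a kinesin of motile cilia, had 7.85 and 8.10 against 7.81 and 7.78 (0.18), again mostly through Gld2 shRNA replicate 2. Kif12 (0.17) and Kif27 (-0.04) made up the class.

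Transport motors lay lower than mitotic motors, by a small margin. The 20 transport motors (transport kinesins and dynein 1 chains) had a median difference of -0.10 and the 11 mitotic motors of 0.06, a gap of -0.15 that is given as a description without a test. In the transport set 16 of 20 were below 0 and in the mitotic set 5 of 11, against 53.8% of all genes. Knockdown cultures were both lower than both controls in 13 of the 20 transport motors (65%), against 34.5% of all genes. In the mitotic set this held for 3 of 11 (27.3%). Both lay above both controls in 0 transport and 3 mitotic motors (27.3%), against 24% of all genes. Among all genes longer than the median gene, 65.3% were below 0 and 46% had both knockdown cultures lower than both controls. By culture, the gap relative to the control mean was -0.09 in Gld2 shRNA replicate 1, -0.15 in Gld2 shRNA replicate 2, and 0.05 and -0.05 in the controls, with a pooled SD within groups of 0.0596. The gap stood at -0.09 with cyclic loess, -0.13 with means in place of medians, -0.08 with light chains and dynactin added to the transport motors, and -0.26 without genes under the 25th percentile, which left 3 mitotic motors. Centring, the prior variance, the choice of probe set and the replicate block cannot move it. The transport median was below 0 under each scaling (-0.12 to -0.03), but with each array centred on the median of all 14497 genes it was -0.03 against 0.05 for all genes. Without Gld2 shRNA replicate 2 the gap was -0.09 and without scrambled shRNA replicate 2 it was -0.24.

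**Figure D2:**
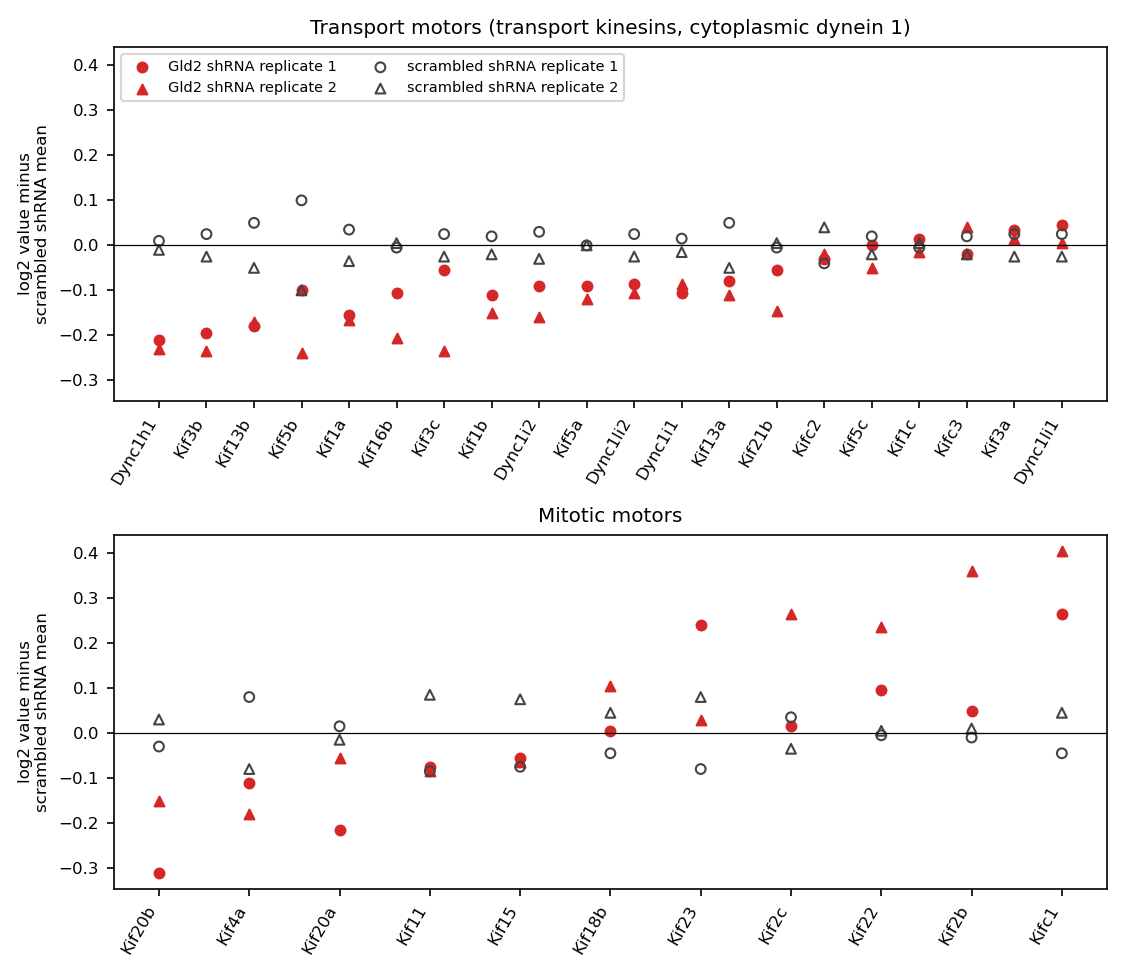
Value of each culture minus the mean of the scrambled shRNA cultures (log2) for the 20 transport motors and the 11 mitotic motors, with filled symbols for Gld2 shRNA and open symbols for scrambled shRNA. In 13 transport motors both filled symbols lie below both open ones, while the mitotic motors spread to both sides.

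The differences of the motors followed the length of their genes, as those of other genes did. Spearman's rho between difference and genomic length was -0.639 across the 59 members and -0.325 across 14466 genes, given as a description across genes, which share the same 4 arrays and are not replicates. Members longer than the median gene (18038 bp) had a median difference of -0.09 (29 of 42 below 0), and the shorter ones of 0.13 (3 of 17 below 0). Over all genes the corresponding medians were -0.06 and 0.03, and 65.3% and 42.4% were below 0. The transport motors were long, with a median of 50572 bp, and the mitotic motors shorter, with 25343 bp. Of the 7 dynein light chains above control 5 were no longer than the median gene, Dynlt2b (8361 bp) among them, and the longest member, Kif26b (405645 bp), lay lowest. Kif6 (296865 bp) went against this order. With the length trend of each array removed, rho was -0.310 in the members and 0.045 over all genes. The transport median moved from -0.10 to -0.05, the mitotic median was 0.05 in place of 0.06, and the gap was -0.10. Dync1h1 was then at -0.15 (adjusted p = 0.172), Kif3b at -0.18 (0.126) and Kifc1 at 0.32 (0.0722), by limma.

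**Figure D3:**
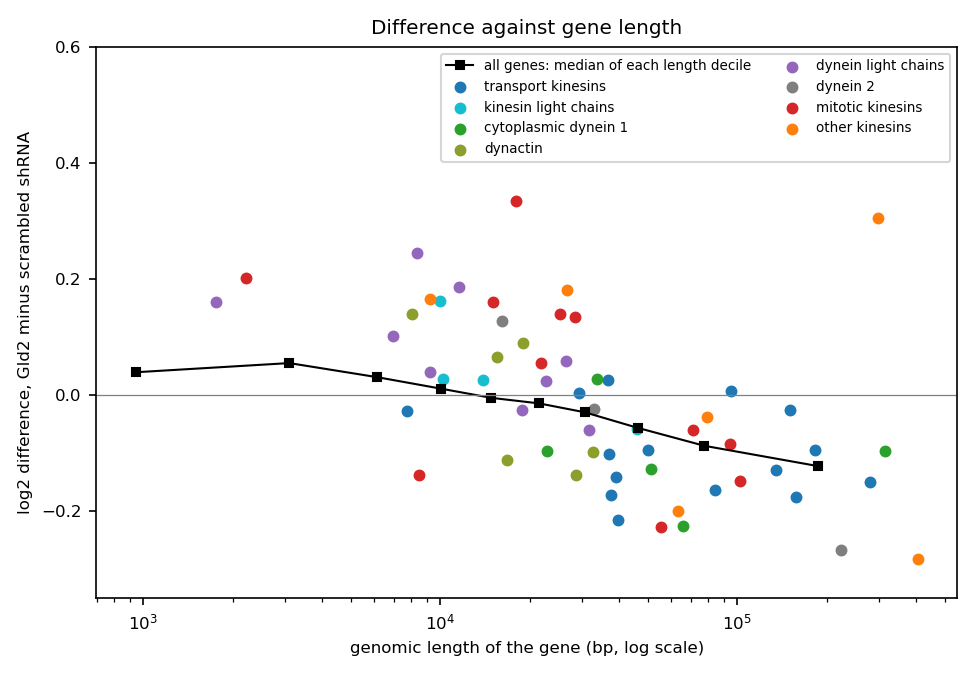
Log2 difference (Gld2 shRNA minus scrambled shRNA) against genomic length in bp on a log axis, with a point for each of the 59 motor genes coloured by class and squares for the medians of the length deciles of all genes. The decile medians run from 0.04 for the shortest to -0.12 for the longest genes, and the members spread around that line.

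Among the adaptors that link the motors to cargo and switch them on, a few genes fell. Of 39 measured adaptors and regulators of 46 listed, 3 fell, 0 rose and 36 did not pass (7.69% lower, against 2.41% of all genes), with a list median of -0.03. The 3 that fell bind dynein. Bicd1, a coiled-coil adaptor that joins dynein and dynactin to Rab6 vesicles, had values of 10.05 and 9.92 with Gld2 shRNA against 10.56 and 10.53, a difference of -0.56 (-0.73 to -0.39, adjusted p = 0.0169 by limma), or 68% of control. Hook1, a dynein adaptor of endosomes, stood at 8.22 and 8.05 against 8.71 and 8.57 (-0.50, adjusted p = 0.0381 by limma). Nin (ninein), a centrosomal dynein adaptor, had 9.10 and 9.09 against 9.42 and 9.46 (-0.34, adjusted p = 0.0402 by limma). The groups were apart in all 3. The related Hook3 (-0.45), Spag9 (-0.32), Trak1 (-0.25) and Rab11fip3 (-0.25) did not pass, with adjusted p from 0.0788 to 0.0985 (limma). Nor did Hap1 (0.21), which links motors to vesicles, and the actin-capping subunits of dynactin Capza2 (0.19) and Capza1 (0.18), with adjusted p from 0.113 to 0.145 (limma). At an unadjusted p under 0.05 the list held 3 higher and 10 lower, 33.3% against 25.4% of all genes. Bicd2 was at -0.05 and Hook2 at -0.09, and the dynein regulators Pafah1b1 (Lis1), Nde1 and Ndel1 were at -0.06, 0.02 and 0.04. The kinesin 2 adaptor Kifap3 was at 0.03.

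With 1 culture left out the differences ran from -0.62 to -0.49 for Bicd1, from -0.59 to -0.42 for Hook1 and from -0.36 to -0.33 for Nin. Whether a gene was called depended on the culture left out. Without scrambled shRNA replicate 1 the adjusted p of Bicd1 was 0.205, of Hook1 0.310 and of Nin 0.310, and without scrambled shRNA replicate 2 they were 0.171, 0.186 and 0.289 (limma). In those fits 3 and 7 of all 14497 genes were called lower. Without Gld2 shRNA replicate 2, Hook1 (0.0870) and Nin (0.0950) also lost the call, while without Gld2 shRNA replicate 1 all 3 kept it. Bicd1 (153950 bp), Nin (102298 bp) and Hook1 (63284 bp) are long genes, and with the length trend removed Bicd1 was at -0.44 (0.0191) and Hook1 at -0.43 (0.0379), whereas Nin was at -0.25 and lost the call (0.0809), all by limma.

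**Figure D4:**
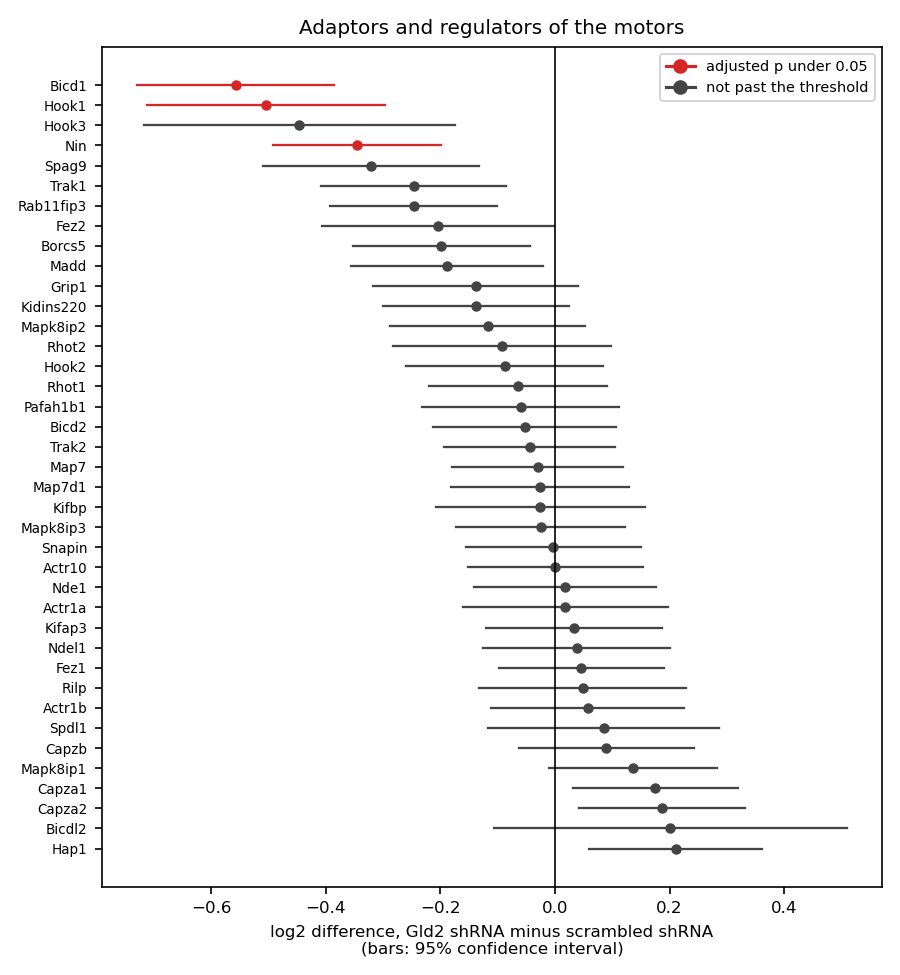
Log2 difference (Gld2 shRNA minus scrambled shRNA, 2 cultures each) of the 39 measured adaptors and regulators of the motors, with 95% confidence intervals from limma as bars. Bicd1, Hook1 and Nin, at -0.56, -0.50 and -0.34, are the ones past the threshold, and Hap1 is the highest at 0.21.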

How the data were processed

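RNA of 4 cultures was measured, 2 with Gld2 shRNA and 2 with scrambled shRNA. The deposited values are log2 values that the submitters' processing notes credit to RMA and affy, with settings and versions not given in the sources used here. Probe sets with 1 gene symbol (15209 of 28826, with 306 holding several and 13311 none) gave 14497 genes, and the probe set with the highest mean was kept. The groups were compared two-sided with lmFit and eBayes (limma 3.58.1, R 4.3.3) and no covariate (2 residual and 3.96 prior degrees of freedom), Benjamini-Hochberg adjustment over all genes and a threshold of 0.05. The fit was run on simulated data with independent noise. The pass mark was set on changes far larger than those of the members, so it does not show that theirs would be found. Genomic lengths and promoters came from RefSeq tables of GRCr8, of a build that the array annotation need not share. Members, classes and lists were chosen with earlier results of these data known. Named with every culture's value were the 6 largest rises and 6 largest falls, dynein 1, dynactin, Kif1a, Kif3a, Kif5a, Kif5b, Kif5c and Kif11; the others named were chosen after their values were seen. Alternatives were cyclic loess, median centring, filters on dim genes, a level-dependent prior variance, the mean of probe sets, all probe sets, a replicate block, removal of the length trend (lowess, span 0.3) and each culture left out; centring on the median of the 14497 genes was added after seeing the data.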

Additional observations from a re-analysis of the deposited data

How the results depend on the processing

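Under the 14 alternatives the members called higher and lower numbered 0 and 0 with the mean of probe sets, all probe sets, the replicate block and centring on the median of the 14497 genes with a symbol. In those fits 4.18%, 1.09%, 3.9% and 2.15% of the genes or probe sets tested were called. Members called numbered 2 and 0 with cyclic loess (5.16% of all genes) and 2 and 2 with centring on the median of all probe sets (13.3%). They numbered 2 and 3 without genes under the 25th percentile (11.9% of 10873 genes) and 1 and 2 without genes under the median (22% of 7249). With a level-dependent prior variance they numbered 2 and 4 (15.4%), and with the length trend removed 1 and 0 (3.74%). Leaving out 1 culture gave 0 to 6 higher and 0 to 2 lower, in fits that assume the lone culture varies like the other group. The gap of transport minus mitotic motors was -0.15 and moved to -0.089 with cyclic loess, -0.26 without genes under the 25th percentile (3 mitotic motors left) and -0.084 with light chains and dynactin added. It ran from -0.24 to -0.093 without 1 culture, and no value could be had without genes under the median, since 0 mitotic motors remained. Of the 28 members described by culture under the naming rule given above, 3 changed sign. Dync1i1 was at 0.051, Kif11 at 0.0064 and Kif5c at 0.088 with the length trend removed, and Kif5c was at 0.045 with centring on those 14497 genes. Without 1 culture Kif11 ran from -0.17 to 0.0006 (without scrambled shRNA replicate 2) and Kif5c from -0.0503 to 0.0007 (without Gld2 shRNA replicate 2). Members outside these 28 changed sign without 1 culture as well, among them Dynlt4 (-0.01 to 0.34) and Dync2li1 (-0.11 to 0.06). The cause of these changes was not tested. The replicate block took the final digit of the sample titles as a number. Deviations of cultures with the same digit correlated at 0.143 over 14497 genes, and with 2 cultures a group the digits are not shown to pair the cultures. Over all genes 245 were higher and 349 lower, against 558 and 1367 with centring on the median of all probe sets and 218 and 94 with centring on those 14497 genes. With cyclic loess the counts higher and lower in all genes were 370 and 378, and with the level-dependent prior 621 and 1611. With the length trend removed they were 230 and 311 of 14466 genes. The filters on dim genes gave 348 and 949 of 10873 genes, and 309 and 1287 of 7249. Over all 28826 probe sets the counts were 197 and 116. Signal over background could not be read from the RMA values, which limits statements on the mitotic kinesins, 8 of 11 of which lay under the 25th percentile of level.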

Other observations

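Kifc1, the member with the highest difference, has Daxx, which encodes a chaperone of histone H3 variants, as a near neighbour in the RefSeq gene order of GRCr8, with Smim40 between them. Daxx was at 0.42 (adjusted p = 0.0431, limma) and passed the threshold. The other measured neighbours of Kifc1 did not pass, Zbtb22 being at 0.09, Phf1 at -0.06 and Cuta at 0.08. Around Kif6, which had the next highest difference, the measured neighbours were Dazl (-0.04), Rftn1 (-0.05), Mocs1 (0.01) and Lrfn2 (-0.09), and none passed. Both loci were looked up after the values of Kifc1 and Kif6 were seen.

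The SD within the Gld2 shRNA cultures was larger than that within the controls in 31 of the 59 members, close to an even split. Relative to the control mean, Dynlt4 was at -0.01 in Gld2 shRNA replicate 1 and 0.34 in replicate 2, Kif2b at 0.05 and 0.36, Kif12 at 0.02 and 0.31, and Kif2c at 0.02 and 0.26. Kif23 went the other way, with 0.24 in replicate 1 and 0.03 in replicate 2.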
